A study of Arabidopsis thaliana with 12 samples.

Results

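ATPMEPCRB (AT4G02330), PMEPCRF (AT5G53370) and GAUT15 (AT3G58790) are 3 Arabidopsis thaliana genes for enzymes that act on pectin. They were chosen by their gene symbols, with earlier results of these arrays in view, out of 13356 genes tested. Each was read by 1 probe set that the array annotation assigns to that gene alone. Expression was measured on Affymetrix ATH1 arrays in shoots of 14-day-old seedlings grown on Yamagami agar with sucrose. The 4 groups, with 3 biological replicates each, were lcs7 at 0.3 mM calcium, wild-type Col-0 at 0.3 mM calcium, lcs7 at 2 mM calcium and Col-0 at 2 mM calcium. The lcs7 line, in the Col-0 background, carries a mutation in AVP1, which encodes the pyrophosphatase that pumps protons into the vacuole. It is the one mutant line used, so a difference from Col-0 is a difference of that line, and AVP1 itself was not analysed here.

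Pectin is the calcium-binding polysaccharide of the plant cell wall. Its main chain, homogalacturonan, is made in the Golgi by galacturonosyltransferases of the GAUT family and is exported with most of its acid groups masked by methyl esters. Pectin methylesterases in the wall remove these esters, and neighbouring chains with free acid groups can then be bridged by calcium ions, which stiffens the wall, or be cut by polygalacturonases and pectate lyases. Pectin methylesterase inhibitors are small proteins that block the methylesterases. Both methylesterases described here carry an inhibitor-like region ahead of the catalytic domain. ATPMEPCRB, also named PME41, has been linked to the response to chilling. GAUT15 belongs to the GAUT family by sequence.

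The 3 genes were chosen with earlier results of these arrays in view, and every array contributed to those results, so their signals and differences are given as a description with no test. The arrays themselves call for some caution. In Col-0 at 0.3 mM calcium, replicates 2 and 3 carried part of the signal of lcs7 at 11 genes that are far higher in lcs7 than in Col-0 at 2 mM calcium (genes chosen after the data were seen). With the Col-0 mean at high calcium set to 0% and the lcs7 mean at low calcium to 100%, the typical gene of the 11 (their median) stood at 25.5% in replicate 2 and at 37.2% in replicate 3, and at -0.06% in replicate 1. Of the marker lists for shoot and root only 1 gene each had a probe set named for that gene alone. RCA, the activase of the carbon-fixing enzyme Rubisco (1 of 7 green shoot markers), had signals of 17245 to 17548 in lcs7 at 0.3 mM calcium, 21555 to 23898 in Col-0 at 0.3 mM, 23117 to 25510 in lcs7 at 2 mM and 22135 to 24418 in Col-0 at 2 mM. PYK10, a beta-glucosidase abundant in roots (1 of 9 root markers), had signals of 4473 to 7033 in lcs7 at 0.3 mM, 1351 to 1657 in Col-0 at 0.3 mM, 2469 to 2994 in lcs7 at 2 mM and 907.0 to 1038 in Col-0 at 2 mM. RCA was thus lowest in lcs7 at low calcium. PYK10 was higher in lcs7 than in Col-0 at both calcium levels, and higher at low than at high calcium in both lines. The part of such shifts in the results below was not tested. In whole shoots, fewer cells of a type and less RNA per cell cannot be told apart.

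ATPMEPCRB was high in both lines on low calcium and low in both on high calcium, with the widest span in lcs7. Its signals, as linear probe set intensities, were 1950.3, 1846.9 and 1545.5 in lcs7 at 0.3 mM calcium, against 277.7, 278.8 and 424.0 in lcs7 at 2 mM. They were 1182.1, 1491.3 and 736.8 in Col-0 at 0.3 mM calcium, against 662.0, 406.1 and 509.5 in Col-0 at 2 mM. Within each line the low-calcium arrays all lay above the high-calcium arrays. The difference between 0.3 and 2 mM calcium on the log2 scale was 2.47 ± 0.29 in lcs7 (SE, n = 3 arrays per group), which is 5.54-fold, and 1.08 ± 0.29 in Col-0, which is 2.12-fold.

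The line difference of ATPMEPCRB had opposite signs at the 2 calcium levels. At 0.3 mM calcium its mean signal was 1781 ± 210.3 in lcs7 and 1137 ± 379.3 in Col-0 (SD, n = 3 each), and the highest Col-0 array lay just under the lowest lcs7 array. At 2 mM calcium it was 326.8 ± 84.2 in lcs7 and 525.9 ± 128.7 in Col-0, and the arrays of the lines overlapped. As log2 differences of lcs7 from Col-0 these were 0.70 ± 0.29 at 0.3 mM and -0.69 ± 0.29 at 2 mM, and the difference between them was 1.39 ± 0.41. Ordered by level, the groups ran lcs7 at 2 mM, Col-0 at 2 mM, Col-0 at 0.3 mM and lcs7 at 0.3 mM, and the first 2 of these were the only neighbours whose arrays overlapped.

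PMEPCRF had nearly the same signal in both lines at 2 mM calcium and its highest signals in lcs7 at 0.3 mM calcium. Its signals were 2336.4, 2760.0 and 2616.9 in lcs7 at 0.3 mM calcium, against 1126.1, 804.0 and 999.7 in lcs7 at 2 mM. In Col-0 they were 1753.9, 968.9 and 1246.9 at 0.3 mM calcium, against 977.6, 974.8 and 943.3 at 2 mM. The lcs7 arrays at low calcium stood above all 9 other arrays, while in Col-0 at low calcium replicate 1 was highest and replicate 2 lay within the Col-0 range at high calcium. The log2 difference between 0.3 and 2 mM calcium was 1.41 ± 0.21 in lcs7 (2.65-fold) and 0.41 ± 0.21 in Col-0 (1.33-fold).

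Between the lines, PMEPCRF differed by 1.00 ± 0.21 on the log2 scale at 0.3 mM calcium (2.00-fold higher in lcs7) and by 0.00 ± 0.21 at 2 mM, a difference between calcium levels of 0.99 ± 0.29. Its value at 0.3 mM rests on which Col-0 arrays are used. Without Col-0 replicates 2 and 3 it was 0.55 ± 0.20, and the calcium difference in Col-0 was then 0.86 ± 0.20, where the 1 Col-0 array left at low calcium was given the spread of the remaining groups. Leaving out replicate 1 of Col-0 at 0.3 mM instead moved both the other way, to 1.22 for the line difference and to 0.19 for the calcium difference in Col-0. For ATPMEPCRB, without replicates 2 and 3, the line difference at 0.3 mM was 0.58 ± 0.34 and the calcium difference in Col-0 1.20 ± 0.34. Without replicate 3 alone its line difference was 0.42. In the order of levels Col-0 at 2 mM, lcs7 at 2 mM and Col-0 at 0.3 mM overlapped with one another, and lcs7 at 0.3 mM stood above them with no overlap.

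GAUT15 went the other way, with its lowest signals in lcs7 at low calcium. They were 215.8, 247.5 and 258.9 in lcs7 at 0.3 mM calcium, against 433.3, 330.5 and 366.7 in lcs7 at 2 mM. In Col-0 they were 320.1, 380.1 and 286.8 at 0.3 mM calcium, against 467.8, 441.5 and 426.7 at 2 mM. In both lines every low-calcium array lay below every high-calcium array. The log2 difference between 0.3 and 2 mM calcium was -0.64 ± 0.14 in lcs7 (0.641 of the signal at 2 mM) and -0.45 ± 0.14 in Col-0 (0.734 of it).

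In the lcs7 line GAUT15 was lower than in Col-0 at both calcium levels by its mean signal, by -0.45 ± 0.14 on the log2 scale at 0.3 mM and by -0.25 ± 0.14 at 2 mM, where the arrays overlapped. The value at 2 mM was -0.16 without lcs7 replicate 2 at 2 mM. The difference between the calcium levels was -0.20 ± 0.20, about its SE. With Col-0 replicates 2 and 3 at low calcium left out, the value at 0.3 mM was -0.42 ± 0.18 and the calcium difference in Col-0 -0.48 ± 0.18. By level, lcs7 at 0.3 mM stood lowest and apart from the others, followed by Col-0 at 0.3 mM, which overlapped with lcs7 at 2 mM, which in turn overlapped with Col-0 at 2 mM.

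**Figure D1:**
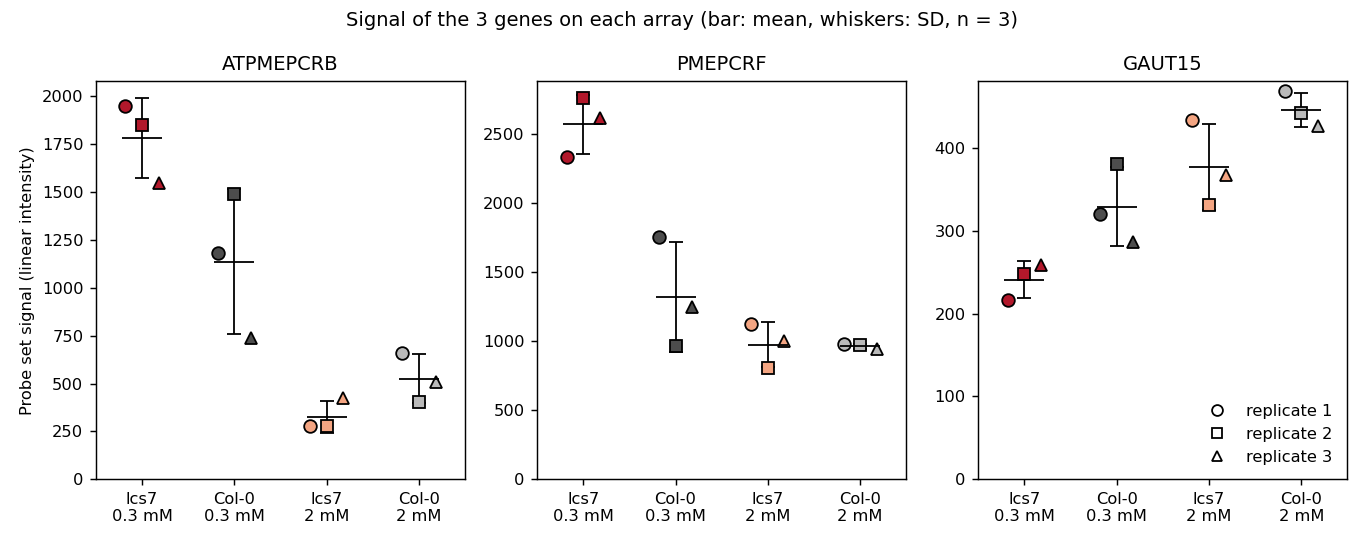
Probe set signal (linear intensity, from 0) of ATPMEPCRB, PMEPCRF and GAUT15 on each of the 12 arrays, by line and calcium level, with a symbol for each replicate, a bar for the mean and whiskers for the SD (n = 3). In lcs7 at 0.3 mM calcium ATPMEPCRB lies between 1545.5 and 1950.3 and PMEPCRF between 2336.4 and 2760.0, above all other arrays, and GAUT15 lies between 215.8 and 258.9, below all others.

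The comparison of 0.3 with 2 mM calcium in lcs7 thus gave arrays without overlap for 3 of 3 genes, 2 higher and 1 lower, where 41.7% of all genes tested had none (19.5% higher and 22.2% lower). For lcs7 against Col-0 at 0.3 mM it was also 2 higher and 1 lower, where 35.7% of all genes had no overlap (15.7% higher and 20% lower). For calcium in Col-0 it was 1 higher and 1 lower, against 22.3% of all genes (10.1% higher and 12.2% lower). For lcs7 against Col-0 at 2 mM it was 0 of 3, against 21.4% of all genes (8.83% higher and 12.6% lower). Since the genes were chosen with these contrasts known, nothing is read from these counts.

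**Figure D2:**
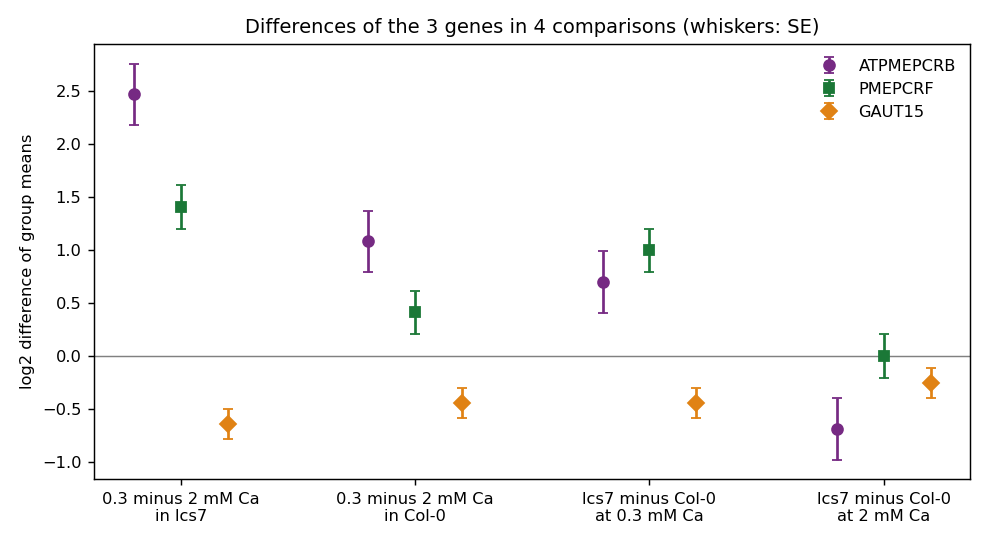
Log2 differences of group means (whiskers: SE, n = 3 arrays per group) of the 3 genes for 0.3 minus 2 mM calcium in lcs7 and in Col-0 and for lcs7 minus Col-0 at 0.3 and 2 mM calcium. ATPMEPCRB and PMEPCRF are above 0 in the first 3 comparisons and GAUT15 is below 0 in all 4.

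Genes whose log2 signal ran most like each of the 3 over the 12 arrays were sought among 7336 others with a mean signal of at least 100. For ATPMEPCRB the closest was AT4G24380 (Pearson's r = 0.97, Spearman's rho = 0.96), with geometric mean signals of 831.8 in lcs7 at 0.3 mM calcium, 580.6 in Col-0 at 0.3 mM, 201.1 in lcs7 at 2 mM and 295.5 in Col-0 at 2 mM. It was followed by AT4G23680, the cytochrome P450 gene CYP71B24, AT2G29340 and AT3G52470, with r from 0.94 to 0.95. For PMEPCRF the 5 closest were AT3G02360 (r = 0.99), AT5G08300, GR1, a glutathione reductase, AT1G75170 and AT2G46420, the last 4 at r = 0.98. GR1 had geometric mean signals of 1274 in lcs7 at 0.3 mM calcium, 698.2 in Col-0 at 0.3 mM, 607.8 in lcs7 at 2 mM and 589.4 in Col-0 at 2 mM. For GAUT15 they were AT4G24060 (r = 0.98), AT2G02160 (r = 0.97), AT2G22650, AT3G13740 and AT4G33180, the last 3 with r from 0.94 to 0.95. None of these 15 genes belongs to the pectin lists described below. Over the same arrays PMEPCRF had r = 0.79 with ATPMEPCRB, and 422 genes were closer to ATPMEPCRB than it was. These coefficients describe 12 arrays that share 4 groups, and many genes differ in lcs7 at low calcium.

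The neighbours of the 3 genes on the chromosomes were also read, up to 3 protein-coding genes on either side. ATPMEPCRB lies beside AT4G02320, and AT4G02300 lies 3 genes before it, both placed by locus among the pectin methylesterases. Neither had a geometric mean signal above 10.3 in any group, near background, against 320.2 to 1772 for ATPMEPCRB on its own probe set, so no difference could be measured well for them. The gene directly after ATPMEPCRB, AT4G02340, did not pass the test for calcium in lcs7 (-0.24 ± 0.10, adjusted p = 0.114). The next one, SEC15B, a subunit of the exocyst complex, fell by 0.42 (SE 0.10, adjusted p = 0.0195), and the third gene after ATPMEPCRB, AT4G02360, rose by 2.31 ± 0.57 with low calcium in lcs7 (adjusted p = 0.0178, signal 165.4 at 0.3 mM and 33.4 at 2 mM). Near PMEPCRF, BOB1, a chaperone gene 3 genes away, was higher in lcs7 at 0.3 mM calcium than at 2 mM by 0.89 ± 0.13 (adjusted p = 0.00137), and the gene directly before PMEPCRF, AT5G53360, did not pass (0.10 ± 0.19, adjusted p = 0.762). The measured neighbours of GAUT15, AT3G58760, AT3G58770 and AT3G58800, did not pass in any of the 4 comparisons. For calcium in lcs7 21.8% of all genes were called, so no grouping along the chromosome is read from the neighbours that passed.

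Other genes of the pectin pathway were placed in lists by locus, and the lists may not hold whole families. Loci were used since the annotation here gives a name that tells of pectin for 3 of the 85 measured ones. No other GAUT gene and none of the 10 GAUT-like genes had a probe set named for 1 gene. The same holds for the 10 genes that make the sugar nucleotide precursor. GAUT15 is thus the 1 of 15 GAUT genes that could be read here. A gene was called at a Benjamini-Hochberg adjusted p under 0.05 in limma over all 13356 genes. The 3 genes described above are left out of all counts of lists.

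At 0.3 mM calcium, 21 of the 85 pectin genes were called between lcs7 and Col-0 (24.7%), 5 higher and 16 lower in lcs7. Over all genes 16.8% were called, 7.01% higher and 9.8% lower. The median log2 difference was -0.26 over the 85 genes and -0.05 over all genes. When Col-0 replicates 2 and 3 were left out the count was 13, with 4 higher and 9 lower, and 12 of the 13 were among the 21. That is beside 5.62% of all genes called in the same fit, 3.12% higher and 2.5% lower.

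Of 68 pectin methylesterase loci listed, 46 had a probe set named for 1 gene, ATPMEPCRB and PMEPCRF included. The family is thus seen only in part. Among the 44 others at 0.3 mM calcium, 2 rose and 6 fell in lcs7 against Col-0. Most of them are barely expressed in these shoots: 26 had a mean signal under 20 and 9 a mean of at least 100. In all 9 of the latter, which were singled out by level after their values were seen, the log2 difference was below 0, with a median of -0.74, and 5 fell. Over all genes 16.8% were called in this comparison. No share was worked out for all genes of such signal, so nothing is read from the 5 as a count. PMEPCRF and ATPMEPCRB stood at 1.00 and 0.70 in the same comparison. AT5G64640 fell by 1.33 (SE 0.16, adjusted p = 0.00108), with geometric mean signals of 116.4 in lcs7 and 291.9 in Col-0. AT3G10720 fell by 1.28 (SE 0.22, adjusted p = 0.00449), with 805.1 in lcs7 and 1960 in Col-0. AT3G43270 (-1.19 ± 0.11), AT5G09760 (-0.74 ± 0.16) and AT3G49220 (-0.47 ± 0.13) were the other 3 that fell. The 4 that did not pass were AT1G05310 (-0.80 ± 0.39), AT3G05620 (-0.49 ± 0.24), AT5G19730 (-0.26 ± 0.26) and PME61 (-0.22 ± 0.24). Under the 22 alternatives all 9 remained below 0, and from 3 to 5 of them fell. Alternatives that leave the 0.3 mM signals as they are, such as those without a 2 mM array, could not change these differences.

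Of the dimmer methylesterases, AT2G47550 rose by 1.69 ± 0.30 (adjusted p = 0.00564, signal 98.3 in lcs7 and 30.4 in Col-0). AT3G47400 fell by 1.48 (SE 0.26, adjusted p = 0.00522, signal 20.1 in lcs7 and 55.9 in Col-0). AT5G07430 also passed (2.52 ± 0.53, adjusted p = 0.0116), but with signals of 9.47 in lcs7 and 1.65 in Col-0, near background. Its 3 lcs7 arrays read 9.3, 22.8 and 4.0, and an offset of 50 before log2 gave 0.25 (adjusted p = 0.104). Without Col-0 replicates 2 and 3 its difference was larger, at 2.98, on fewer arrays (adjusted p = 0.075). With the same offset AT2G47550 stood at 0.88 and AT3G47400 at -0.61, and both passed.

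Among the inhibitors and the pectin-cutting enzymes most calls were downward as well. Of 17 inhibitor loci listed 11 could be read, and of 27 polygalacturonase and pectate lyase loci 17. Over all genes 7.01% were called higher and 9.8% lower in this comparison. Of 11 methylesterase inhibitor genes 4 fell and none rose, among them AT5G62360 (-1.29 ± 0.27, adjusted p = 0.0111, signal 612.6 in lcs7 and 1496 in Col-0) and AT4G25260 (-1.14 ± 0.10, adjusted p = 0.000325, signal 275.3 in lcs7 and 606.4 in Col-0). AT3G62820 (-1.21 ± 0.26) and AT5G20740 (-0.69 ± 0.19) were the other 2. Of 17 polygalacturonase and pectate lyase genes 5 fell and 1 rose. AT3G07010 (-1.25 ± 0.21, adjusted p = 0.00401), AT5G48900 (-1.07 ± 0.13, adjusted p = 0.00116) and AT1G04680 (-0.83 ± 0.12, adjusted p = 0.00181) were among those that fell, and AT3G27400 rose (0.94 ± 0.24, adjusted p = 0.0248). Without Col-0 replicates 2 and 3, 2 inhibitors and 2 of the cutting enzymes fell and none rose, where 2.5% of all genes fell and 3.12% rose. In that fit, with fewer arrays, AT5G62360 (-0.97, adjusted p = 0.208), AT5G20740 (-0.68, adjusted p = 0.199), AT3G07010 (-0.83, adjusted p = 0.101) and AT3G27400 (1.05, adjusted p = 0.0548) did not pass. AT5G20740 and AT3G27400 passed in 8 of the 12 fits that left out 1 array. Leaving out an array outside the compared groups changes the estimated spread but not the difference.

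A few pectin genes were higher in lcs7 alongside ATPMEPCRB and PMEPCRF. AT3G09405, the 1 of 6 pectin acetylesterase genes called at 0.3 mM calcium, rose by 2.06 ± 0.25 (adjusted p = 0.000969), with signals of 684.8 in lcs7 and 164.2 in Col-0. SBT3.5, a subtilase that has been shown to process a pectin methylesterase, rose by 2.22 ± 0.30 (adjusted p = 0.00168), with signals of 641.3 in lcs7 and 137.5 in Col-0. Without Col-0 replicates 2 and 3 its difference was 1.43 (adjusted p = 0.0171). Of the other 2 proteases listed with it, ARA12 fell (-0.50 ± 0.10, adjusted p = 0.0089; -0.55 and adjusted p = 0.0502 without those arrays) and S1P did not pass (-0.28 ± 0.23, adjusted p = 0.465). The pectin-binding receptor kinase FER (-0.11 ± 0.11, adjusted p = 0.575) and the related wall sensor THE1 (-0.20 ± 0.30, adjusted p = 0.728) did not pass. Neither did AT3G49720 or AT5G15740, the 2 measured genes of the list for other steps of pectin synthesis (adjusted p = 0.58 and 0.605).

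**Figure D3:**
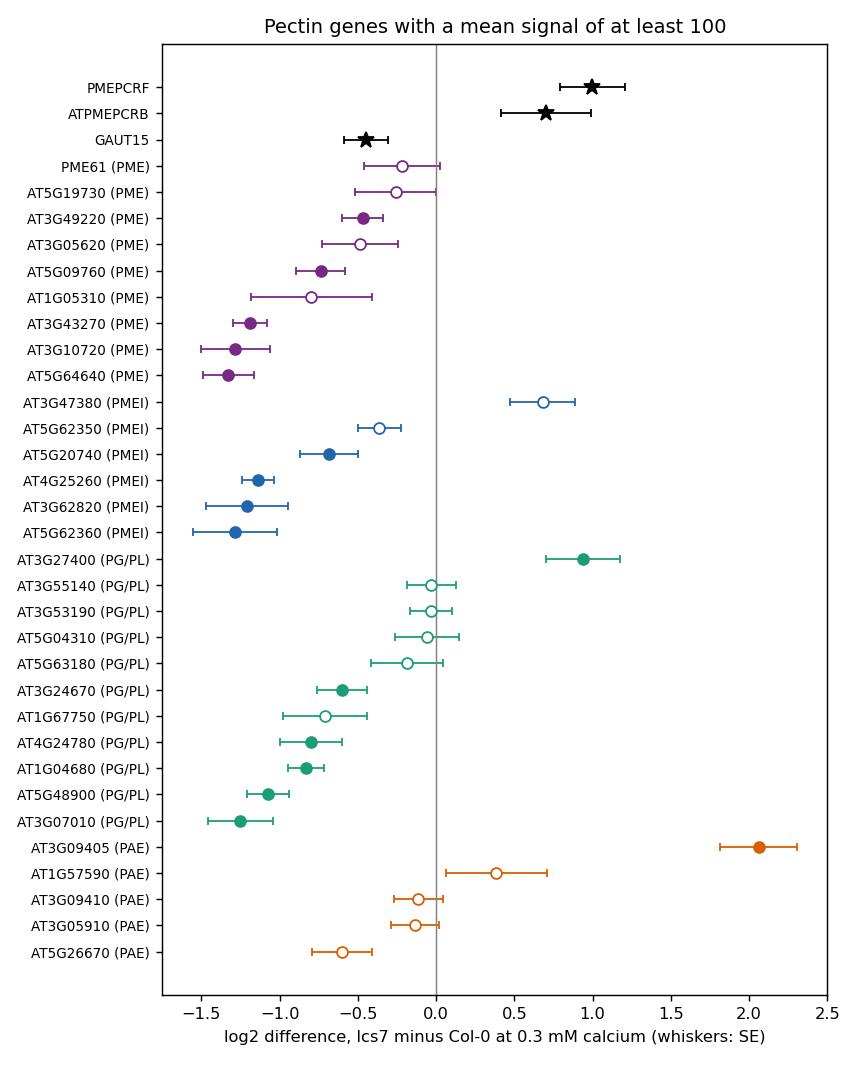
Log2 difference of lcs7 minus Col-0 at 0.3 mM calcium (whiskers: SE, n = 3 arrays per group) for the 3 genes (stars) and for other pectin genes with a mean signal of at least 100, grouped as pectin methylesterases (PME), their inhibitors (PMEI), polygalacturonases and pectate lyases (PG/PL) and pectin acetylesterases (PAE). Filled circles passed the test and open ones did not. The 9 other methylesterases shown, out of 68 listed loci of which 46 could be read, all lie below 0. PMEPCRF and ATPMEPCRB lie at 1.00 and 0.70.

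Low against high calcium in lcs7, the comparison with the widest differences for all 3 genes, also called 21 of the 85 pectin genes, 8 higher and 13 lower at 0.3 mM. Over all genes 21.8% were called, 10.1% higher and 11.8% lower. The median log2 difference was -0.18 over the 85 genes and -0.05 over all genes. Of the 44 other methylesterases 2 rose and 4 fell, and of the 9 with a mean signal of at least 100, 2 fell and none rose. AT2G47550 rose by 1.41 ± 0.30 (adjusted p = 0.0101) and AT3G47400 fell by 1.38 (SE 0.26, adjusted p = 0.00534). AT5G07430 (2.57 ± 0.53) and AT5G51490 (-1.97 ± 0.53) passed, both with geometric means under 10 at both calcium levels. For each, 1 array stood high: AT5G07430 read 22.8 in lcs7 replicate 2 at 0.3 mM and AT5G51490 read 23.5 in lcs7 replicate 1 at 2 mM. Without that array the differences were 1.93 and -1.32, and with an offset of 50 they were 0.25 and -0.23 and neither passed. AT5G51490 passed in 8 of the 12 fits without 1 array.

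In the same comparison 4 of 11 inhibitors fell and 1 rose. AT5G62360 fell by 2.11 (SE 0.27, adjusted p = 0.000809), with signals of 612.6 at 0.3 mM calcium and 2643 at 2 mM, and AT4G25260 fell by 1.24 (SE 0.10, adjusted p = 0.000182), while AT3G47380 rose by 0.81 ± 0.21 (adjusted p = 0.0213). AT1G62770 passed too (-0.64 ± 0.19, adjusted p = 0.0417). Of the fits without 1 array AT3G47380 passed 8 of 12 and AT1G62770 4 of 12, and leaving out both Col-0 arrays, which leaves its difference at -0.64, gave AT1G62770 an adjusted p of 0.0665. Of 17 polygalacturonases and pectate lyases 3 rose and 3 fell, with AT3G27400 (1.52 ± 0.24) and AT5G63180 (1.08 ± 0.23) among those that rose and AT3G07010 (-1.04 ± 0.21) and AT5G48900 (-1.02 ± 0.13) among those that fell. AT3G09405 rose by 2.08 ± 0.25 (adjusted p = 0.000586), AT3G05910 of the same acetylesterase list fell by 0.73 (SE 0.15, adjusted p = 0.00903), SBT3.5 rose by 2.14 ± 0.30 (adjusted p = 0.00133) and FER fell by 0.73 (SE 0.11, adjusted p = 0.00171). AT5G15740 of the list for other synthesis steps did not pass (-0.05 ± 0.12, adjusted p = 0.824). This comparison and the one at 0.3 mM calcium share the lcs7 arrays at low calcium.

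In Col-0, low against high calcium gave no call by limma among the 85 pectin genes. Over all genes 0.307% were called (0.195% higher and 0.112% lower). An unadjusted p under 0.05 was found for 25 of the 85 and for 17.5% of all genes. The lists were chosen with earlier results of these data known, so nothing is read from these shares. With trend and robust moderation 7 were called, beside 5.33% of all genes, and with Col-0 replicates 2 and 3 left out 1, beside 0.562% of all genes. The median log2 difference was 0.08, against -0.03 over all genes. The genes with the smallest p of their lists were the pectate lyase list's AT3G53190 (0.79 ± 0.13, adjusted p = 0.0503, signal 1374 at 0.3 mM and 796.6 at 2 mM), the methylesterase list's AT4G15980 (-1.47 ± 0.27, adjusted p = 0.0503, signal 15.6 at 0.3 mM and 43.3 at 2 mM), the inhibitor list's AT1G62760 (1.64 ± 0.45, adjusted p = 0.113), AT3G05910 (-0.55 ± 0.15, adjusted p = 0.118) and FER (-0.39 ± 0.11, adjusted p = 0.117). SBT3.5 (0.23 ± 0.30, adjusted p = 0.76) and AT3G49720 (0.17 ± 0.13, adjusted p = 0.541) did not pass. ATPMEPCRB, at 1.08 ± 0.29, had its low-calcium arrays above its high-calcium arrays in Col-0 as well.

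**Figure D4:**
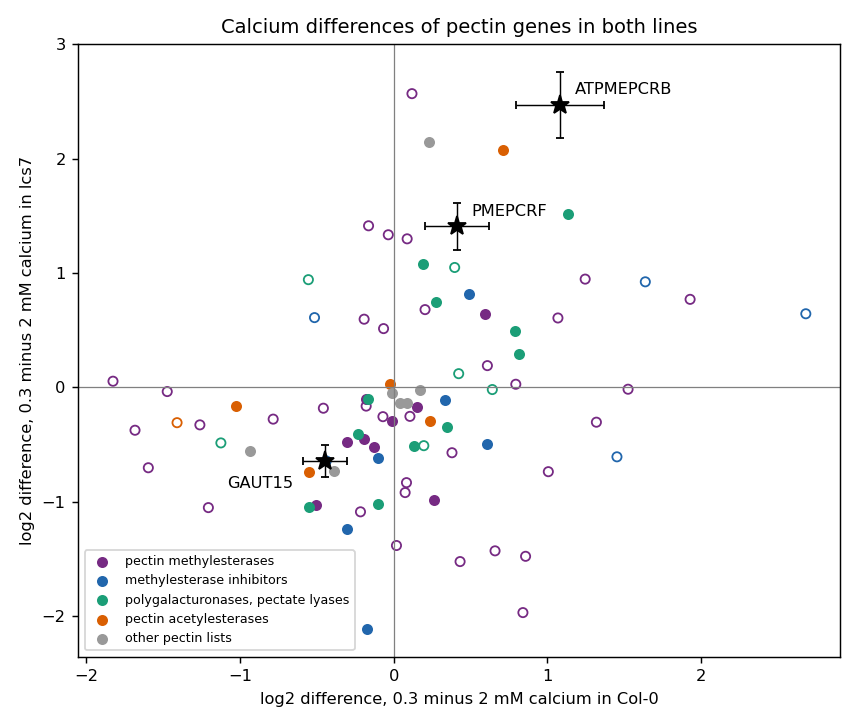
Log2 difference between 0.3 and 2 mM calcium in Col-0 (x axis) and in lcs7 (y axis) for the 3 genes (stars, whiskers: SE) and the 85 other pectin genes (circles, coloured by list, filled where the mean signal is at least 100). ATPMEPCRB lies at 2.47 in lcs7 and 1.08 in Col-0, PMEPCRF at 1.41 in lcs7 and 0.41 in Col-0, and GAUT15 at -0.64 in lcs7 and -0.45 in Col-0, on 4 groups of arrays of which none enters both axes.

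At 2 mM calcium, 3 of the 85 pectin genes were called between lcs7 and Col-0, all lower, where 2.77% of all genes were called (1.65% higher and 1.12% lower). The methylesterases AT5G64640 and AT3G43270 fell by 1.07 (SE 0.16, adjusted p = 0.0112) and by 0.90 (SE 0.11, adjusted p = 0.00521) in lcs7, and both were also lower at 0.3 mM. AT5G63180 of the polygalacturonase and pectate lyase list fell by 1.08 (SE 0.23, adjusted p = 0.042), with signals of 659.7 in lcs7 and 1394 in Col-0. It passed in 2 of the 12 fits without 1 array, with a highest adjusted p = 0.142, and AT5G64640 passed in 11 of them. In the other lists the smallest p values belonged to the inhibitor list's APPB1 (1.71 ± 0.69, adjusted p = 0.278), AT3G09405 (0.70 ± 0.25, adjusted p = 0.211), ARA12 (-0.32 ± 0.10, adjusted p = 0.152), FER (0.23 ± 0.11, adjusted p = 0.367) and AT5G15740 (-0.07 ± 0.12, adjusted p = 0.853). ATPMEPCRD, a methylesterase gene named in the same way as ATPMEPCRB, had signals of 50.5 in lcs7 and 44.0 in Col-0 at 2 mM, and of 45.1 in lcs7 and 38.9 in Col-0 at 0.3 mM, and passed in no comparison.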

How the data were processed

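Each array has 22746 deposited values, which are linear intensities of its probe sets. Per the submitters' processing notes RMA and oligo 1.32.0 were used, but the values are neither log2 nor on shared quantiles, so the summarisation method is not given in the sources used here. Median signals were 161.3 to 187.6 per array, and 17.1 to 19.3% of probe sets were under 20, near background. Arrays give no read depth, and 3 per group limit the precision. Here log2 of the signal was taken without an offset. Probe sets naming 1 gene (13513) were kept, and of several for a gene the one with the highest mean, leaving 13356 genes. Only 14016 probe sets had a gene name, so a listed gene without one may still be among the deposited values. limma 3.58.1 in R 4.3.3 fitted 1 mean per group over 12 arrays with empirical Bayes moderation, 2-sided, and p-values were adjusted by Benjamini-Hochberg over the whole table in each comparison. Tables and figures used Python 3.11.15, pandas 2.3.3 and matplotlib 3.10.9. The fit was also run on simulated data with independent noise and few changed genes. These arrays differ from that setting, so nothing is read from that run here.

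The 3 genes and the pectin lists were chosen with earlier results of these data known. In each list and simple comparison the rule names up to 4 called genes with the largest difference, or the gene with the smallest p. The 9 brighter methylesterases, the other 3 called ones among them, S1P, THE1, ATPMEPCRD, and the chromosomal neighbours were added after values were seen. Neighbours follow the RefSeq table of TAIR10.1. One receptor gene whose synonym mentions polygalacturonases was kept out of the lists.

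The alternatives tried were trend and robust moderation, quantile normalization, array weights, centring on the array median, adding 50 before log2, only genes that reach a mean signal of 100 in some group, averaging a gene's probe sets, only the compared groups, a replicate block, each array left out, both doubted Col-0 arrays left out, and a fold of at least 2.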

Additional observations from a re-analysis of the deposited data

Results flagged for a closer look

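In 3 pectin genes the difference between lcs7 and Col-0 was not the same at the 2 calcium levels, by limma's interaction test over all genes. The interaction on the log2 scale was -1.93 ± 0.38 (adjusted p = 0.0374) for AT5G62360 of the methylesterase inhibitor list, with geometric mean signals of 612.6 in lcs7 and 1496 in Col-0 at 0.3 mM calcium, and of 2643 in lcs7 and 1689 in Col-0 at 2 mM. It was -0.94 ± 0.15 (adjusted p = 0.0186) for AT4G25260 of the same list and -0.92 ± 0.19 (adjusted p = 0.0431) for AT5G48900 of the pectate lyase list. These are 3 of 85 pectin genes, and all 3 are negative. Over all genes 2.31% were called for the interaction (0.981% positive and 1.33% negative). For the genes described above, which were not tested, the values were 1.39 ± 0.41 for ATPMEPCRB, 0.99 ± 0.29 for PMEPCRF and -0.20 ± 0.20 for GAUT15. The PMEPCRF value was 0.55 ± 0.24 without Col-0 replicates 2 and 3 at low calcium. When the low-calcium Col-0 replicates 2 and 3 were left out, 1 Col-0 array remained at low calcium, so whether the 3 calls hold without them cannot be judged. The median interaction over the 85 genes was then -0.20, against -0.26 with all arrays.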

How the results depend on the processing

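The differences of ATPMEPCRB and GAUT15 kept their direction and moved by less than 1 SD under every alternative run, but small ones moved by over 1.5 times without 1 array. ATPMEPCRB's line difference at 0.3 mM was 0.42 to 0.93, GAUT15's at 2 mM -0.35 to -0.16 and GAUT15's interaction -0.29 to -0.09 (nearest 0 without Col-0 replicate 2 at 0.3 mM). For PMEPCRF, leaving out Col-0 replicates 2 and 3 at low calcium moved the line difference at 0.3 mM to 0.55, the calcium difference in Col-0 to 0.86 and the interaction to 0.55, while leaving out replicate 1 there moved the line difference to 1.22, the calcium difference in Col-0 to 0.19 and the interaction to 1.22. Its line difference at 2 mM, near 0, ran from -0.11 to 0.14 without 1 array and was negative without Col-0 replicate 3 (-0.01), lcs7 replicate 1 (-0.11) or lcs7 replicate 3 (-0.02) at 2 mM. Counts of called pectin genes moved more. At 2 mM calcium 3 became 5 with trend and robust moderation, an offset of 50 or a mean signal of at least 100, 1 with only the compared groups, and 1 to 5 without 1 array. At 0.3 mM calcium 21 became 13 without both Col-0 arrays, 13 with a fold of at least 2, and 17 to 23 without 1 array. In Col-0, where limma called 0, there were 7 with trend and robust moderation, 4 with an offset of 50, 5 with a mean signal of at least 100, 1 without both Col-0 arrays, and 0 to 1 without 1 array. In lcs7, 21 became 12 with a fold of at least 2 and 16 to 22 without 1 array. The interaction's 3 became 7 with trend and robust moderation, 8 with an offset of 50 or a mean signal of at least 100, 1 with a fold of at least 2, 1 with the replicate block, 0 without both Col-0 arrays, and 0 to 5 without 1 array. Causes were not tested. The replicate block moved no other count by over 1.5 times. The sample titles do not say whether same-numbered arrays were handled together. Their deviations from the group means correlated with a median r of 0.02 (-0.21 to 0.30 over 18 pairs). For pairs of differently numbered arrays the median r was 0.005 (-0.37 to 0.30 over 36 pairs). Of 12 arrays, 3 were closest to one of their own number. Of the 34 calls at genes chosen by rule, 27 held whichever array was left out. An array outside the compared groups enters such a fit through the spread only, so leaving it out could not move the difference.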
